A study of Mus musculus with 5 samples.

Results

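The cells described here are fibroblasts of the mouse spinal cord that carry RNA of Clec3b, Fmod and Igfbp2, a set of genes seen together in fibroblasts of the meninges, the membranes that wrap the cord. They were chosen by measured values. Barcodes had to show 200 genes or more, with mitochondrial UMIs at 10% or less, and one was taken as a member if it held at least 3 UMIs over Clec3b, Fmod, Igfbp2 and Cmbl from at least 2 of these genes, more UMIs over them than over Itih5, Hsd11b1, Edn3 and Gpr182, and at least 2 UMIs over Col1a1, Col1a2, Col3a1 and Dcn. A UMI is a count of 1 captured RNA molecule. A barcode found in more than 1 of the Healthy 1, Healthy 2 and EAE 1 tables was kept only where its UMI total was highest. This gave 693 members among 4678 kept barcodes, 14.8%, and the 4416 fibroblast barcodes (at least 2 UMIs over the 4 collagen and decorin genes) left 3723 other fibroblasts as the comparison. Healthy 1, Healthy 2 and Healthy 3 held 136, 65 and 94 members, and EAE 1 and EAE 2 held 271 and 127.

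Every library came from spinal cord of mice with the Col1a1GFP reporter on a C57/BL6 background, dissociated and sorted for green fluorescence, then run as 10x v2 single-cell RNA-seq. The 3 Healthy libraries are from animals without disease and the 2 EAE libraries from animals with experimental autoimmune encephalomyelitis, a model in which an immune response to myelin inflames the cord. The reporter marks cells by activity of the Col1a1 promoter, so cells in which it is silent are not sampled. The labels give no age, sex, stage of disease or number of animals per library, and none says that each library is from its own animals. The p-values therefore reflect how much these libraries vary among themselves, which may be partly technical.

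The leptomeninges and the dura hold layered fibroblasts that make the collagens and proteoglycans of the membranes, transport solutes and form part of the barrier around the cerebrospinal fluid. Clec3b encodes tetranectin, a secreted protein that binds plasminogen, Fmod encodes fibromodulin, a small leucine-rich proteoglycan that binds collagen fibrils, and Igfbp2 encodes a carrier of insulin-like growth factors. Cmbl encodes a cytosolic hydrolase. Meningeal fibroblasts are also known for making retinoic acid and for expressing transporters, gap junction genes and the transcription factors Foxc1 and Zic1.

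Among the tables, Healthy 1 and EAE 1 shared 1239 barcodes, Healthy 1 and Healthy 2 shared 996, and Healthy 2 and EAE 1 shared 683. The rule removed 1541 copies from Healthy 1, 683 from Healthy 2 and 2 from EAE 1, and no barcode remained in 2 libraries as a member. Of the members kept in EAE 1, 183 had a copy in the Healthy 1 table and 86 in the Healthy 2 table. The median UMI count of members was 1640, 3158 and 4405 in Healthy 1, 2 and 3, and 4386 and 5313 in EAE 1 and EAE 2. Healthy 3 and EAE 2, whose labels carry a lane, are taken as the second batch and the other libraries as the first. Doublets were not removed.

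The regions in front of Fmod and Igfbp2 are shown because these genes define the cells. Those of Gbp3, Igtp and Bst2 are from interferon-induced genes that passed the test as higher in EAE, with EAE 1 well above EAE 2. These 3 were picked because their window held GAAANNGAA, a motif explained below, which 3 of the 8 such genes with a promoter sequence held. The matches marked in them therefore follow from that choice. Each run is the 250 bases before the annotated start, read 5′ to 3′ on the gene's strand, from RefSeq on GRCm38.p6. For 4 of the 5 genes the bases after that start were found in a GENCODE transcript of the gene, and for Bst2 they were not, so its start rests on RefSeq alone. In Igfbp2 the capitals mark GGGCGG, the GC box, and in the interferon genes they mark GAAANNGAA, the core of the interferon-stimulated response element, and TTCNNNGAA, the gamma-activated site. Each motif was searched on both strands, and matches that overlap run together.
Fmod (chr1:134037004-134037253, plus strand): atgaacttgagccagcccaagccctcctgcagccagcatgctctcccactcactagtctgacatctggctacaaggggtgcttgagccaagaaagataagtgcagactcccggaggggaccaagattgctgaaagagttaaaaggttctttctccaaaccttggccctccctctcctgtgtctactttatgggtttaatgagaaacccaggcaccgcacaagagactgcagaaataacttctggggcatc
Igfbp2 (chr1:72824230-72824479, plus strand): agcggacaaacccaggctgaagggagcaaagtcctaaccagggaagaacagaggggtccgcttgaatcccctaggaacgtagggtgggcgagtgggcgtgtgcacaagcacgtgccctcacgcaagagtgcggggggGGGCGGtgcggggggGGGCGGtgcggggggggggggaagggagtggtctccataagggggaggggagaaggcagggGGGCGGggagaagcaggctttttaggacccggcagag
Gbp3 (chr3:142559794-142560043, plus strand): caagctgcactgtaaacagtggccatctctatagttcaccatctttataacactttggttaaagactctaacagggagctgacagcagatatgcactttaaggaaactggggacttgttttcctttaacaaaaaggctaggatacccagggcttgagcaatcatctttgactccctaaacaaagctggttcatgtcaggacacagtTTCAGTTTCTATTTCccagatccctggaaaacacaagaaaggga
Igtp (chr11:58199306-58199555, plus strand): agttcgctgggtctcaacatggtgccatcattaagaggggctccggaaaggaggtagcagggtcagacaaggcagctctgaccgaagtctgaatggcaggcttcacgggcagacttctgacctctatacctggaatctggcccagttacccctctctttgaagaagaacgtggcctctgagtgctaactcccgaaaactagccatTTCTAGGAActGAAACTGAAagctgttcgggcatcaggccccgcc
Bst2 (chr8:71537473-71537722, minus strand): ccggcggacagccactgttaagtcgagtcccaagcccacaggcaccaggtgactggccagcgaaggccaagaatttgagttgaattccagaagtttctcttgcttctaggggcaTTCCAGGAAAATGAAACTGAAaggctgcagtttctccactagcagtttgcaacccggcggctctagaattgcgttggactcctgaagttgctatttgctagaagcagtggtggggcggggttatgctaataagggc
The Fmod window held no GC box on either strand, and the Igfbp2 window held 3. Of the 4584 tested genes with a promoter in the table, 68.1% held a GC box in the same window.

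The 4 marker genes, which the rule used and which therefore carry no test, were present at very different levels in members of the healthy and diseased cord. Levels of a gene in a group of cells are given as CPM, its UMIs in those cells of a library scaled to a total of 1000000 UMIs. Clec3b stood at 2390, 2647 and 2617 in Healthy 1, 2 and 3 and at 373 and 324 in EAE 1 and EAE 2. The Healthy members held several times more of it than the EAE members, and no EAE library came near a Healthy one. Fmod stood at 1195, 1432 and 1480 in Healthy and at 268 and 207 in EAE. Igfbp2 stood at 2611, 2262 and 2933 in Healthy and at 1441 and 759 in EAE. Cmbl stood at 225, 268 and 216 in Healthy and at 118 and 178 in EAE. For all 4 genes every Healthy library stood above both EAE libraries, with the smallest gap between the states in Cmbl. The other fibroblasts also held less Clec3b in EAE, 35.8 and 41.2 against 244, 141 and 158 in Healthy.

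**Figure D1:**
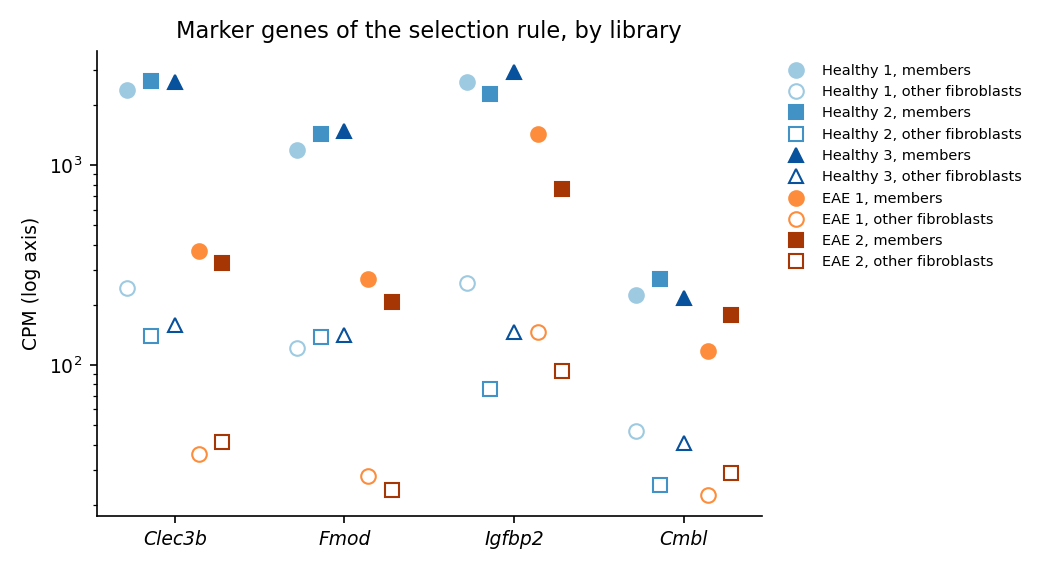
CPM (log axis) of the 4 marker genes in each library, with members as filled symbols and other fibroblasts as open symbols of the same colour. Clec3b in members lies between 2390 and 2647 in the 3 Healthy libraries and at 373 and 324 in the EAE libraries.

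Members of the EAE libraries passed the rule with fewer marker UMIs. The marker genes gave 64.2, 66.1 and 72.5 of every 10000 UMIs of members in Healthy 1, 2 and 3, and 22 and 14.7 in EAE 1 and EAE 2. A Healthy member held a median of 8, 15 or 21.5 marker UMIs by library, and an EAE member 7 or 6 although its total was as high or higher. Only 2 of the 4 genes were detected in 43.4%, 33.8% and 16.0% of Healthy members and in 63.5% and 59.1% of EAE members. Clec3b itself had a UMI in 75.7%, 89.2% and 90.4% of Healthy members, and in 46.5% and 52.0% of EAE members. Among other fibroblasts, at median depths of 1165, 3219, 4283, 4657 and 5059 UMIs in the same order, 15.4%, 15.9%, 18.9%, 8.75% and 11.7% held one. Igfbp2 was the gene seen most in EAE members, in 94.1% and 91.3% of them.

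At the edge of the rule, 14, 4 and 4 Healthy members and 31 and 23 EAE members held exactly 3 marker UMIs. Just outside it, 7, 7 and 3 Healthy barcodes and 43 and 19 EAE barcodes held 2 UMIs from 2 of the genes. Members with at least 20 marker UMIs numbered 19, 21 and 53 in Healthy 1, 2 and 3 and 30 and 6 in EAE 1 and EAE 2.

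The mean share of members among fibroblast barcodes was lower in EAE than in Healthy, with EAE 1 close to Healthy 2. They were 20% (exact Clopper-Pearson 95% interval 17.1% to 23.2%), 15.8% (12.4% to 19.7%) and 25.5% (21.1% to 30.2%) of fibroblast barcodes in Healthy 1, 2 and 3. In EAE 1 and EAE 2 they were 15.5% (13.9% to 17.3%) and 10.5% (8.83% to 12.4%). These intervals cover counting error only. The mean was 20.4% ± 4.86 (SD, n = 3) in Healthy and 13% ± 3.55 (SD, n = 2) in EAE, a difference of -7.40 percentage points (two-sided exact permutation p = 0.2, the smallest this design can give). In the first batch alone the difference was -2.37 points and in the second, with 1 library a state, -15.0 points.

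Depth enters this share, because a deep barcode reaches 3 UMIs more easily. After each barcode was thinned to 1000 UMIs, members were 20.1%, 11.2% and 21.5% of the fibroblast barcodes left in Healthy 1, 2 and 3 and 4.20% and 1.57% in EAE 1 and EAE 2, a difference of -14.7 points (two-sided exact permutation p = 0.2). Without thinning, the shares among barcodes of at least 1000 UMIs were 24.1%, 16.1% and 25.3% in Healthy and 15.5% and 10.9% in EAE. With the copied barcodes left in, the shares were 7.40%, 6.74% and 25.5% in Healthy and 15.5% and 10.5% in EAE, and the difference came to -0.199 points (two-sided exact permutation p = 1). The share measures barcodes that pass the rule. A smaller number of such cells and less marker RNA per cell cannot be told apart from it.

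**Figure D2:**
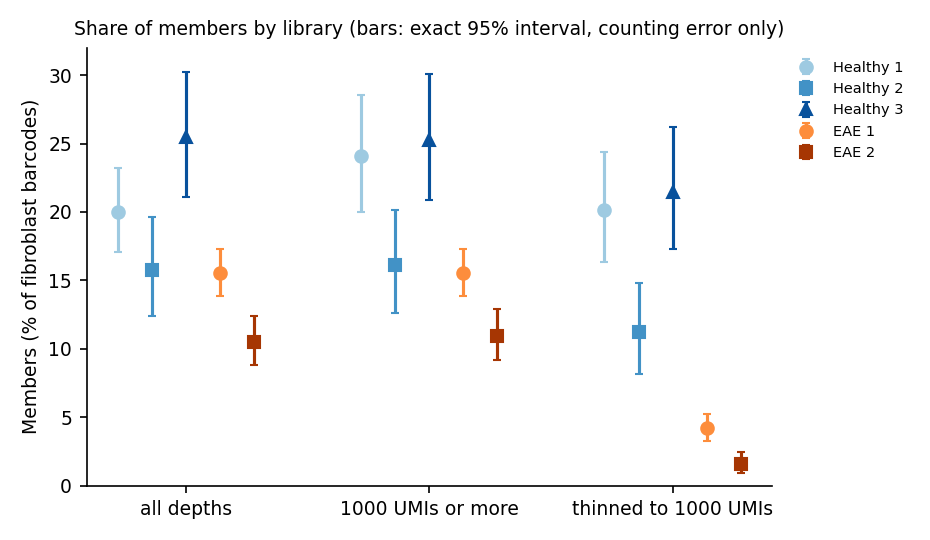
Members as a percentage of fibroblast barcodes in each library, over all depths, among barcodes of at least 1000 UMIs and after thinning to 1000 UMIs, with exact 95% intervals for counting error. After thinning the Healthy libraries lie between 11.2% and 21.5% and the EAE libraries at 4.20% and 1.57%.

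Healthy and EAE members lay mostly in different clusters. When all kept barcodes were clustered without the rule's 12 genes, 195 of the 295 Healthy members (106, 37 and 52 by library) fell in cluster 7, led outside the rule's genes by Rbp4, Cpxm2, Asgr1 and Pi16. Clec3b, Fmod and Igfbp2 led it too, which the rule sets in part, since 203 of its 329 barcodes are members. Only 8 of the 398 EAE members fell there. Cluster 8, led by Spp1, Itih5, Clec3b, Fmod and Hsd11b1, held another 69 Healthy members and 21 EAE members. The EAE members lay mainly in cluster 5 (156; Igfbp3, Ptgds, Slc7a11, F5 and Ranbp3l), cluster 4 (89; Eln, Ccl19, Npy1r and C3) and cluster 1 (73; Pltp, Msc, Lsp1, Col4a2 and Col4a1), where 7, 2 and 2 Healthy members lay. Of the EAE members in cluster 4, 85 of 89 were from EAE 1, and 71 of 73 in cluster 1 were from EAE 2. These 3 clusters were led by none of the 4 marker genes, so the EAE members are called here by the rule that chose them, and every comparison of the states within the members compares cells from mostly different clusters. Cells that left one cluster for another, and other cells that pass the rule only in EAE, cannot be told apart.

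**Figure D3:**
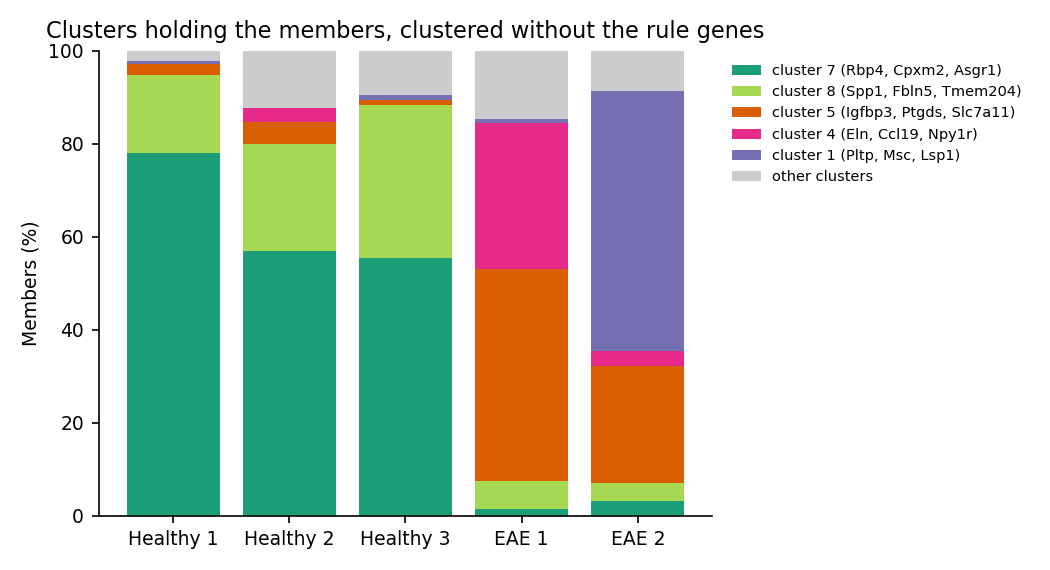
Percentage of each library's members in the 5 clusters that hold most of them, clustered without the rule's genes, with leading genes in brackets. Clusters 7 and 8 hold most members in every Healthy library, and clusters 5, 4 and 1 most members in the EAE libraries, cluster 4 mainly in EAE 1 and cluster 1 mainly in EAE 2.

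The Healthy members held a set of further genes well above other Healthy fibroblasts, given as a description since the members were selected on RNA of the same cells. Rbp4, the plasma carrier of retinol, stood at 2190, 1392 and 1473 in members of Healthy 1, 2 and 3 against 260, 46.8 and 211 in other fibroblasts. Pi16, a secreted protein of the CAP family, stood at 1135, 1518 and 655 against 165, 72.9 and 51.9. Wnt4, a Wnt ligand, stood at 795, 830 and 427 against 100.03, 30.4 and 41.7. In each of these genes every library's members exceeded the other fibroblasts of that library. The gap junction gene Gjb2 stood at 366, 572 and 484 against 76.7, 38.2 and 67.2. Asgr1, the major subunit of the asialoglycoprotein receptor known from liver, stood at 183, 218 and 176 against 22.1, 2.60 and 16.2. Cpxm2, a carboxypeptidase-like protein of the matrix, stood at 166, 233 and 319 against 15.6, 35.6 and 15.3.

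The same genes were followed into EAE. Of the 20 leading genes of Healthy members, 14 were more than 1 log2 unit above other fibroblasts in EAE 1 and 14 in EAE 2, with medians of 1.29 and 1.70, where the Healthy medians, high because these genes were ranked on the Healthy libraries, were 2.52, 3.26 and 3.07. A lower median in EAE is therefore no result in itself. By cluster, the median was 3.28 for the Healthy members of cluster 7 and 1.94 for the EAE members of cluster 5, with 16 of 20 genes past 1 log2 unit there. It was 0.87 and 0.83 for the EAE members of clusters 4 and 1. In cluster 8 it was 1.41 for the Healthy members, with 12 genes past 1 log2 unit, and 0.18 for the EAE members, with 4. Slc7a11, a cystine transporter, was the leading gene whose level in members was higher in both EAE libraries, at 1504 and 1456 against 774, 526 and 595 in Healthy (log2 fold change 1.20 ± 0.23 SE, adjusted p = 0.00377).

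Ptgds, which encodes prostaglandin D synthase and is abundant in arachnoid cells, led the Healthy list by ratio but sat in few cells. Its level was 1123, 4935 and 3440 in members of Healthy 1, 2 and 3 and 341 and 5181 in EAE 1 and EAE 2, so the states overlapped. A UMI of it was found in 10.3%, 9.23% and 19.1% of Healthy members and 23.6% and 12.6% of EAE members. The 5 richest members carried 86.7%, 99.9% and 90.6% of its UMIs in Healthy and 48.3% and 99.6% in EAE. Its level therefore describes a handful of members in 4 of the libraries and not the set as a whole.

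Several genes were lower in Healthy members than in other Healthy fibroblasts. Gfra1, a receptor for glial-derived growth factor, stood at 17.0, 0 and 27.6 in members against 252, 125 and 356 in other fibroblasts. Ccl11, the eosinophil chemokine eotaxin, stood at 8.50, 91.1 and 90.3 against 1100, 1205 and 556. Dcn, a gene of the rule that encodes decorin, stood at 8339, 11266 and 9632 in Healthy members against 27126, 33706 and 28307 in other Healthy fibroblasts. In EAE the members held 9298 and 8249 and the other fibroblasts 9449 and 8408, so the gap seen in Healthy was not there.

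Meningeal genes that the rule did not use were present in every library, in members and in other fibroblasts. Slc6a13, a GABA and taurine transporter of leptomeningeal fibroblasts, stood at 778, 1311 and 1036 in Healthy members and 502 and 615 in EAE members. Other fibroblasts held 540, 476 and 614 in Healthy and 199 and 204 in EAE. Foxc1 stood at 234, 223 and 228 in Healthy and 227 and 295 in EAE, and Zic1 at 340, 400 and 454 in Healthy and 337 and 401 in EAE. Both transcription factors thus held much the same level in all 5 libraries. In other fibroblasts Foxc1 stood at 139, 83.3 and 140 in Healthy and 174 and 218 in EAE. Zic1 stood there at 283, 227 and 243 in Healthy and 244 and 294 in EAE. Mgp, an inhibitor of calcification that is high in dural fibroblasts, stood at 3151, 3771 and 2906 in Healthy and 2090 and 1264 in EAE. Other fibroblasts held 1057, 1494 and 1215 of it in Healthy and 2740 and 2355 in EAE, so EAE members were the lower ones. The 9 dural genes, Mgp among them, were also summed. They came to 3717, 4474 and 3465 in Healthy members against 2108, 3097 and 2420 in other fibroblasts. In EAE the sums were 2964 and 1946 against 3408 and 2956. Mgp gave most of each sum in members, so the sums are no separate result. Without Mgp, members had the lower sum in every Healthy library and the higher sum in both EAE libraries. Smoc2, also of the list, stood at 55.3, 157 and 188 in Healthy members against 864, 1307 and 1000. Foxp1 stood at 251, 116 and 183 against 112, 75.5 and 121. Among genes of other cells, the tenocyte factor Scx had no UMI in 4 of the 5 libraries and the keratocan gene Kera none in any. The arachnoid barrier genes Cdh1 and Krt18 had none in any. Other fibroblasts held little of these 4 genes too, at most 9.54 (Kera in Healthy 2). Further tenocyte genes were present in some Healthy members. Comp stood at 102, 10.1 and 25.1 in Healthy 1, 2 and 3 against 1.30, 92.8 and 0 in other fibroblasts. Thbs4 stood at 21.3, 116 and 0 against 5.20, 31.2 and 1.70, and Chad at 42.5, 0 and 0 against 1.30, 16.5 and 0. The whole lists were not low. The 11 arachnoid barrier genes summed to 1807, 5481 and 3874 in members of Healthy 1, 2 and 3 and to 1531 and 6318 in EAE 1 and EAE 2, against 292, 285, 295, 900 and 827 in other fibroblasts, and Ptgds and Aldh1a2 gave most of each sum in members. The tenocyte genes other than Fmod summed to 2747, 2030 and 2710 in Healthy and 860 and 1977 in EAE, nearly all of it from the immediate early gene Egr1, which the list also holds. The part of such cells in the results was not tested. Of the 13 immune genes, 1, 2 and 2 were detected in Healthy 1, 2 and 3 at sums of 4.25, 35.4 and 7.53, and 9 and 7 in EAE 1 and EAE 2 at 118 and 49.9. Ptprc, the common leukocyte antigen, was at 0 in all libraries but EAE 1, where it stood at 0.77. The 6 erythroid genes summed to 104 in EAE 1 and to 81.0 or less elsewhere.

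EAE members differed from Healthy members in many genes. Summed over the members of each library and tested with edgeR's quasi-likelihood test, 175 of 5948 genes outside the rule were higher in EAE (2.94% of genes tested) and 181 were lower (3.04%), after Benjamini-Hochberg adjustment at 0.05. At an unadjusted p under 0.05 there were 1081. Lack of overlap between the states was common. Of the 5948 genes, 1064 had both EAE libraries above every Healthy one and 815 had both below. Among the genes named by level and by lack of overlap, the largest rise was in Aqp1 and the largest fall in Angptl1. Leaving out EAE 1 left 52 higher and 47 lower, leaving out Healthy 2 left 83 and 87, leaving out Healthy 3 left 108 and 116, and leaving out EAE 2 left 100 higher, while without Healthy 1 there were 333 and 325. These fits kept the batch term. Leaving out EAE 2 or Healthy 3 leaves 1 library in the second batch, which that term absorbs. Both fits then compare EAE 1 with Healthy 1 and 2, as the first batch alone does, and are no separate checks. Leaving out EAE 1 compares EAE 2 with Healthy 3. This holds for every such fit of members below. Members that met a stricter rule (at least 5 marker UMIs from 3 genes) gave 74 higher and 68 lower, and those with both Clec3b and Fmod 24 and 13.

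Aqp1, a water channel, had the largest rise. Its level was 12.8, 0 and 0 in Healthy 1, 2 and 3, from 3 UMIs in all, and 314 and 340 in EAE 1 and EAE 2, from 409 and 238 UMIs. Over all members of a state its UMIs per UMI were 89.4 times higher in EAE (exact 95% interval for counting error 30.5 to 435), and a UMI was found in 44.3% and 41.7% of EAE members (edgeR log2 fold change 6.36 ± 0.58 SE, adjusted p = 2.68e-05). DESeq2 gave an adjusted p of 0.062 for it. It rose as much in the other fibroblasts, by 6.42 on the log2 scale.

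Kng2, which encodes a kininogen, stood at 12.8, 10.1 and 10.04 in Healthy members and at 159 and 251 in EAE members (log2 fold change 4.13 ± 0.40 SE, adjusted p = 1.7e-05). Itih3, a heavy chain that binds hyaluronan, stood at 25.5, 5.06 and 2.51 in Healthy and 197 and 210 in EAE (4.32 ± 0.50 SE). Lsp1, an actin-binding protein known from leukocytes, stood at 102, 132 and 87.8 in Healthy and 934 and 1100 in EAE (3.24 ± 0.27 SE). In all 3 genes both EAE libraries lay far above every Healthy one. Zbp1, a sensor of nucleic acid in the Z form, stood at 4.25, 15.2 and 2.51 in Healthy and 202 and 54.2 in EAE (4.35 ± 0.48 SE, adjusted p = 3.81e-05), and its adjusted p was 0.21 without EAE 1. The other rises among the 12 largest were Ly6a (3.84), Dclk1 (3.73), Npy1r (2.99), the procollagen protease Bmp1 (2.95), the complement protease C1s1 (2.93), the tight junction gene Cldn11 (2.90) and Mustn1 (2.86). In the other fibroblasts the log2 fold changes were 3.68 for Kng2, 4.20 for Itih3, 3.84 for Lsp1, 4.34 for Zbp1 and 3.09 for Ly6a. There Dclk1 changed by 4.63, Npy1r by 1.92, Bmp1 by 3.22, C1s1 by 0.88, Cldn11 by 0.79 and Mustn1 by 0.51. Kng2 and C1s1 have close copies in the mouse genome among which reads could be split.

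Angptl1, a secreted angiopoietin-like protein, fell most. It stood at 162, 182 and 176 in Healthy 1, 2 and 3 and at 16.1 and 5.71 in EAE 1 and EAE 2 (log2 fold change -3.89 ± 0.39 SE, adjusted p = 1.7e-05). Cpxm2 stood at 166, 233 and 319 in Healthy and 40.6 and 25.7 in EAE (-2.85 ± 0.35 SE). Gsn, which encodes the actin-severing protein gelsolin, stood at 1646, 3011 and 2338 in Healthy and 332 and 372 in EAE (-2.78 ± 0.27 SE). The Healthy libraries were close together for Angptl1 and more spread for Gsn, with no overlap with EAE in either. Gas6, a ligand of the TAM receptors, stood at 264, 496 and 309 in Healthy and 96.6 and 39.9 in EAE (-2.37 ± 0.34 SE). The 12 largest falls were also falls in the other fibroblasts, with Gsn falling more there and Cpxm2 little. The log2 fold changes there were -2.33 for Angptl1, -0.37 for Cpxm2, -3.78 for Gsn and -1.51 for Gas6. The other falls among the 12 largest are given with members first and other fibroblasts second. They were Fam180a (-3.09 and -1.79), the lipid transporter Abca8a (-2.69 and -3.11), Wfdc1 (-2.48 and -1.999) and the snoRNA host gene Snhg11 (-2.48 and -1.05). The annotated antisense RNA Gm17056 (-2.46 and -2.01) was another, for which the sources used here do not say whether strand was used in counting. The last were the cholesterol synthesis gene Hmgcs1 (-2.33 and -1.89), podocan, encoded by Podn (-2.33 and -2.3), and Id1 (-2.23 and -1.36), an inhibitor of basic helix-loop-helix factors. Without EAE 1 the adjusted p of Gm17056 was 0.328 and that of Id1 0.288.

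**Figure D4:**
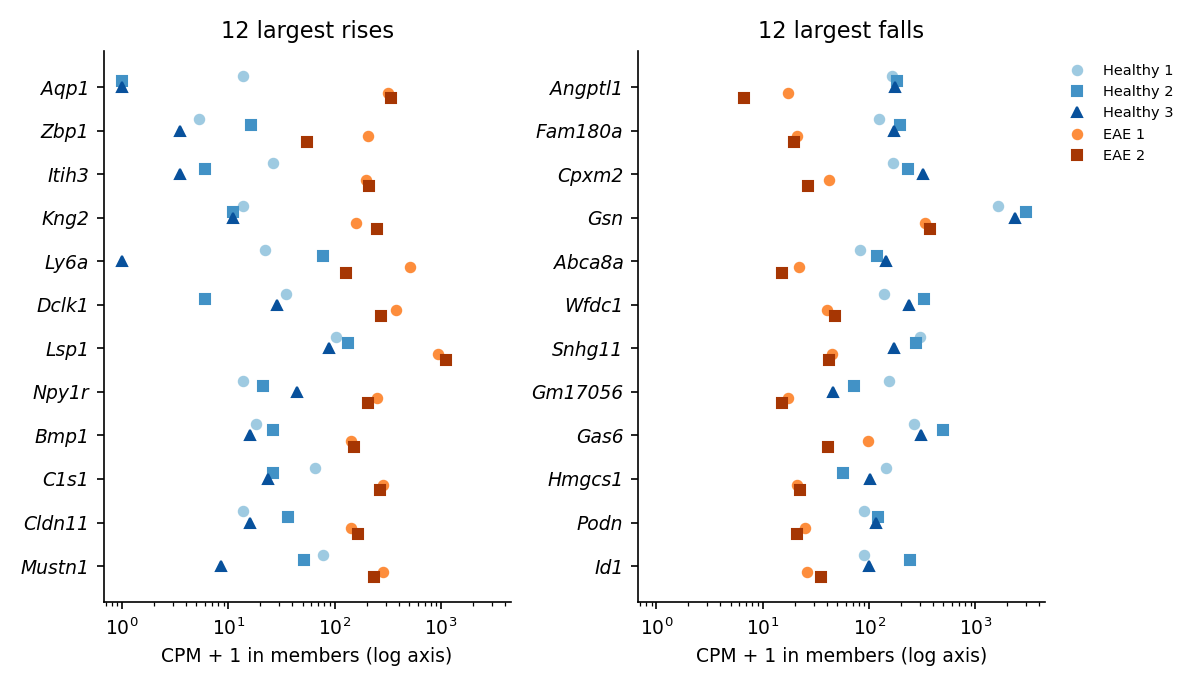
CPM plus 1 (log axis) in members of each library, for the 12 largest rises (left) and the 12 largest falls (right). In each of the 24 genes the EAE libraries lie wholly above or below the Healthy libraries, which was a condition for naming them.

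Because the states occupied different clusters, the 24 genes were also read within cluster 8, the cluster with the most members of the state that had fewer. There 69 Healthy members held 137680 UMIs and 21 EAE members 63685. These EAE members carried little of the 20 leading genes of Healthy members, with a median of 0.18 log2 units above other fibroblasts. The level in EAE was higher for 10 of the 12 rises and lower for 10 of the 12 falls, with no test since 16 and 5 EAE members came from EAE 1 and EAE 2. Kng2 stood at 14.5 in the Healthy and 471 in the EAE members of that cluster, and Gsn at 1460 and 785. Several rest on few UMIs or a small gap. Aqp1 had 0 UMIs in the Healthy and 1 in the EAE members, Zbp1 and Mustn1 had 1 and 3 each, and Fam180a stood at 269 and 251. Npy1r (58.1 and 15.7), Cldn11 (7.26 and 0) and Hmgcs1 (21.8 and 62.8) went the other way, and Angptl1 had no UMI in either. Of the marker genes, a description since the rule used them, Clec3b stood at 2499 in the Healthy and 2999 in the EAE members of cluster 8, Igfbp2 at 1939 and 1821, Fmod at 1903 and 801, and Cmbl at 407 and 204.

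Interferon-induced genes rose in members of the EAE libraries. Of 24 tested, 11 rose, none fell and 13 did not pass, with a median log2 fold change of 1.17 beside 0.02 over all genes tested. The median of the same genes in the other fibroblasts was 1.43, so the rise was not particular to members. Among the risers were Zbp1, the transcription factors Irf7 and Irf8, the GTPases Gbp3, Iigp1, Igtp and Ifi47, the tethering protein Bst2, and Psmb8 and Tap1 of antigen processing. Bst2 stood at 72.3, 157 and 57.7 in Healthy and 349 and 94.2 in EAE (log2 fold change 1.25 ± 0.33 SE, adjusted p = 0.0321). EAE 1 was the higher EAE library, and EAE 2 lay among the Healthy libraries. Without EAE 1 only 1 of 19 tested rose, and without Healthy 2 there were 4 of 24. Under the stricter rule 1 of 13 rose, with 65 members from each library 4 of 17, and without members holding immune or erythroid UMIs 10 of 24. Of the 8 risers with a promoter in the table, 3 held GAAANNGAA (37.5%, the Gbp3, Igtp and Bst2 runs printed above) and 4 held TTCNNNGAA. Of all 19 tested interferon-induced genes with a promoter in the table, risers included, 8 (42.1%) and 6 (31.6%) held them. Over all tested genes 7.33% and 6.44% did. The immune genes above were at 118 in EAE 1 and 49.9 in EAE 2, and their part in the rise was not tested.

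Antigen presentation and complement moved in the same direction. Of 14 tested genes of MHC class I presentation, 6 rose (H2-K1, H2-D1, H2-Q7, B2m, Tap1 and Psmb8) and none fell, with a median of 0.86. Their median in the other fibroblasts was 1.03. B2m, the invariant light chain, stood at 885, 1270 and 873 in Healthy and 5247 and 1817 in EAE (log2 fold change 1.74 ± 0.27 SE, adjusted p = 0.00206). EAE 1 was again far above EAE 2, none of the 14 passed without EAE 1, and 2 passed without Healthy 2. Of 13 tested complement genes, 7 rose, among them C1ra, C1s1, C2, C4b, C6 and Cfb, none fell, and the median was 1.79. Their median in the other fibroblasts was 0.88. Between 5 and 8 complement genes rose whichever library was left out. C4b, a component of the classical and lectin pathways, stood at 123, 50.6 and 77.8 in Healthy and 452 and 531 in EAE (2.49 ± 0.32 SE). Here the 2 EAE libraries were alike. C4b has a close copy, C4a, in the genome.

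Of 15 tested chemokine and cytokine genes, 3 rose (Cxcl2, Cxcl10 and Cxcl13) and 2 fell (Cxcl14 and Il33), with a median of -0.28. Their median in the other fibroblasts was 0.18. Cxcl10, which draws in T cells, stood at 21.3, 30.4 and 72.8 in Healthy and 256 and 200 in EAE (2.32 ± 0.38 SE, adjusted p = 0.00169). Il33, an alarmin, stood at 111, 81.0 and 153 in Healthy and 46.0 and 19.97 in EAE (-1.81 ± 0.40 SE, adjusted p = 0.0131). No library of one state overlapped the other in either gene, which was common among the genes tested, as given above. The adjusted p of Cxcl10 was 0.262 without EAE 1, and that of Il33 was 0.323 without EAE 2 and 0.302 without Healthy 3.

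Matrix genes split by family. Of 7 tested small leucine-rich proteoglycans outside the rule, 5 fell (Lum, Ogn, Prelp, Podn and Ecm2), none rose and the median was -1.36. Their median in the other fibroblasts was -1.50. Lum, which encodes lumican, stood at 1025, 678 and 846 in Healthy and 416 and 258 in EAE (log2 fold change -1.36 ± 0.27 SE, adjusted p = 0.00478). Prelp stood at 430, 537 and 670 in Healthy and 231 and 265 in EAE (-1.22 ± 0.26 SE). Without EAE 1, without EAE 2 or without Healthy 3, 2 of 8 tested fell. Of 35 tested matrix glycoproteins 8 fell and 2 rose, the latter Fn1 (fibronectin) and Fbn1 (fibrillin). Over all genes tested 3.04% fell and 2.94% rose, so the 2 rises say little about the list. Fn1 stood at 157, 86.0 and 80.3 in Healthy and 616 and 350 in EAE (2.20 ± 0.29 SE, adjusted p = 0.000138). Spp1, osteopontin, was among the falls at 821, 582 and 768 in Healthy and 292 and 131 in EAE (-1.82 ± 0.31 SE). Without EAE 1, 3 of 36 fell and 1 rose.

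Collagens other than those of the rule were mixed. Of 5 tested fibrillar collagens Col5a1 and Col5a2 rose. Without EAE 1 their adjusted p were 0.896 and 0.425, and under the stricter rule 0 of 4 passed by edgeR. Of 14 collagens of network, microfibril and FACIT types, Col4a1, Col4a2 and Col8a1 rose and Col8a2, Col12a1 and Col15a1 fell. The falls numbered 0 without Healthy 2, without Healthy 3 or without EAE 2, and Col8a2 overlapped between the states, at 97.8, 96.2 and 376 in Healthy and 61.3 and 97.0 in EAE. Col8a1 stood at 327, 258 and 261 in Healthy and 887 and 772 in EAE (1.54 ± 0.24 SE, adjusted p = 0.000705). Without EAE 1 its adjusted p was 0.166, and 0 of 15 network-type genes rose and 1 fell by edgeR. Of the rule's own collagens, given as a description, Col3a1 stood at 872, 1549 and 1104 in Healthy and 3604 and 2444 in EAE, and Col1a1 at 1697, 3067 and 3648 in Healthy and 4878 and 5289 in EAE.

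Genes of retinoid synthesis and transport moved in both directions, with 5 of 12 higher (Aldh1a2, Rdh10, Crabp2, Stra6 and Cyp26b1) and 2 lower (Rbp4 and Rarres2). Aldh1a2, which makes retinoic acid, stood at 502, 359 and 281 in Healthy and 900.2 and 810.2 in EAE (1.22 ± 0.25 SE, adjusted p = 0.00656). Cyp26b1, which breaks it down, stood at 12.8, 0 and 5.02 in Healthy and 90.5 and 79.9 in EAE (3.74 ± 0.52 SE, adjusted p = 0.000251). Rbp4, one of the leading genes ranked on their Healthy ratio, fell from 2190, 1392 and 1473 to 891 and 750 (-1.03 ± 0.24 SE, adjusted p = 0.0134). In all 3 genes the states did not overlap, as in 1064 of the 5948 tested genes with EAE above and 815 with EAE below. Without EAE 1, EAE 2 or Healthy 3 in turn, 1 gene of the list rose and none fell, and the adjusted p of Aldh1a2 was 0.165, 0.173 and 0.207 and that of Rbp4 0.4, 0.0852 and 0.115.

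Some genes of cholesterol synthesis and some immediate early genes fell in EAE members. Of 12 tested genes of cholesterol synthesis, 5 fell (Hmgcs1, Idi1, Cyp51, Msmo1 and Sc5d), 7 did not pass, none rose, and the median was -1.61. Their median in the other fibroblasts was -1.77. Hmgcs1 stood at 145, 55.7 and 100.4 in Healthy and 19.9 and 21.4 in EAE (-2.33 ± 0.40 SE, adjusted p = 0.00173). The list held 2 falls without EAE 1, 2 without Healthy 1, 3 without EAE 2 and 3 without Healthy 3, and under the stricter rule 0 of 7 fell. Of 22 immediate early genes, which respond within minutes to stimuli and to tissue dissociation, 6 fell (Fos, Junb, Egr1, Atf3, Ier2 and Btg2), 16 did not pass, none rose, and the median was -1.01. Their median in the other fibroblasts was -0.68. Fos stood at 5877, 6337 and 4122 in Healthy and 2407 and 2809 in EAE (-1.04 ± 0.21 SE, adjusted p = 0.00573). Junb stood at 6102, 3993 and 5169 in Healthy and 1379 and 2834 in EAE (-1.47 ± 0.28 SE). Without EAE 1, 0 of 24 passed, without Healthy 2 there were 3 of 22, and without EAE 2, Healthy 3 or Healthy 1 there were 13, 12 and 11.

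Other lists showed smaller counts. Over all genes tested 2.94% were higher and 3.04% lower, so a count of 1 says little about a list. Of 21 genes of TGF-beta and BMP signalling, 5 fell (Tgfbi, Bmp2, Bmp4, Id1 and Id3) and Fstl1 rose. Without EAE 1, 1 of 20 fell and none rose. Of 10 lipid carrier genes 1 rose and 4 fell, among the latter Apod, the most abundant, at 22180, 25260 and 25220 in Healthy and 10030 and 14510 in EAE (-1.09 ± 0.16 SE, adjusted p = 0.000439). With the rule applied after thinning Apod turned to 0.33 (adjusted p = 0.618), and in members with both Clec3b and Fmod its adjusted p was 0.134. Without EAE 1, 2 of 11 lipid carrier genes fell. Of 9 genes of the insulin-like growth factor axis outside the rule 2 rose, Igfbp5 and Igfbp7. Igfbp7 overlapped between the states, at 2105, 2556 and 805 in Healthy and 4814 and 2211 in EAE, and its adjusted p was 0.607 with no batch term and 0.0558 without Healthy 3. That of Igfbp5 was 0.142 without EAE 2 and 0.159 without Healthy 3. Of 4 tested partners of plasminogen and tetranectin, the protein of Clec3b, none passed. Of 21 fibroblast transcription factors 1 rose, Osr1, at 72.3, 86.0 and 70.3 in Healthy and 212 and 127 in EAE (1.14 ± 0.30 SE, adjusted p = 0.0272), and its adjusted p was 0.834 without EAE 1.

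The test of the difference in response asked which genes moved otherwise in members than in the other fibroblasts of the same libraries. Of 9496 genes, 169 (1.78%) had a higher response in members and 267 (2.81%) a lower one. Without EAE 1, EAE 2 and Healthy 3 in turn the higher counts were 110, 104 and 111, and the lower counts were 128, 145 and 167. Pla2g7, which degrades platelet-activating factor, differed most among the higher ones. It stood at 55.3, 45.6 and 77.8 in Healthy members and 279 and 317 in EAE members, and in other fibroblasts at 401, 415 and 593 in Healthy and 171 and 164 in EAE. It thus rose in members (log2 fold change 2.21 ± 0.28 SE, adjusted p = 0.000115) and fell in other fibroblasts (-1.60 ± 0.21 SE), a difference of 3.82 (± 0.23 SE, edgeR adjusted p = 3.94e-37). Smoc2, a matricellular protein, stood at 55.3, 157 and 188 in Healthy members and 126 and 74.2 in EAE members, while other fibroblasts went from 864, 1307 and 1000 to 113 and 83.5 (difference 3.00 ± 0.24 SE). Cpe, a prohormone carboxypeptidase, showed the same arrangement (difference 2.23), as did Abi3bp (2.13 ± 0.30 SE). In these 3 genes the members were already low in Healthy and the other fibroblasts fell in EAE, for Smoc2 and Abi3bp to about the members' level. Cpe stayed higher in other fibroblasts, at 107 and 129 in EAE 1 and EAE 2 against 52.1 and 104 in members. Clusters 2 and 3, with Smoc2, Gfra1 and Gpc3 among their leading genes, held 425 and 401 Healthy barcodes and 35 and 35 EAE barcodes. The part of this mix in the change of other fibroblasts was not tested. Cldn11 and Mustn1 rose in members, and did not pass in other fibroblasts (0.79 and 0.51), with differences of 2.09 and 2.22.

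Among the largest lower responses in members, Mfap4 and Dpt were among the 20 leading genes of the Healthy members. Mfap4, a microfibril protein of elastic fibres, stood at 544, 1174 and 1355 in Healthy members and 316 and 588 in EAE members, and in other fibroblasts at 92.2, 106 and 151 in Healthy and 303 and 445 in EAE (difference -2.84 ± 0.18 SE, adjusted p = 1.1e-32). Dpt, dermatopontin, stood at 306, 258 and 449 in Healthy members and 200.1 and 160 in EAE members, while other fibroblasts went from 49.4, 26.0 and 71.5 to 266 and 145 (-2.94 ± 0.22 SE). In both genes members and other fibroblasts were closer in EAE. Both were ranked on their ratio in the Healthy libraries, and EAE members passed the rule with fewer marker UMIs. The smaller gap is therefore no result in itself. Tnfaip2 differed by -2.72 (adjusted p = 0.0953 without Healthy 3) and the transcription factor Msc by -2.62. Gpx3, a secreted glutathione peroxidase, differed by -3.48, a value that 1 library made. It stood at 4.25, 481 and 7.53 in Healthy 1, 2 and 3, and in Healthy 2 the 5 richest members held 98.9% of its 95 UMIs, and without that library the difference was -1.83 (adjusted p = 0.397). Of the 14 collagens of network, microfibril and FACIT types, 9 had a lower response in members and none a higher one. Set against the 592 barcodes chosen by Itih5, Hsd11b1, Edn3 and Gpr182 in place of all other fibroblasts, 56 genes had a higher and 108 a lower response, and 8 of the 11 genes named here passed.

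**Figure D5:**
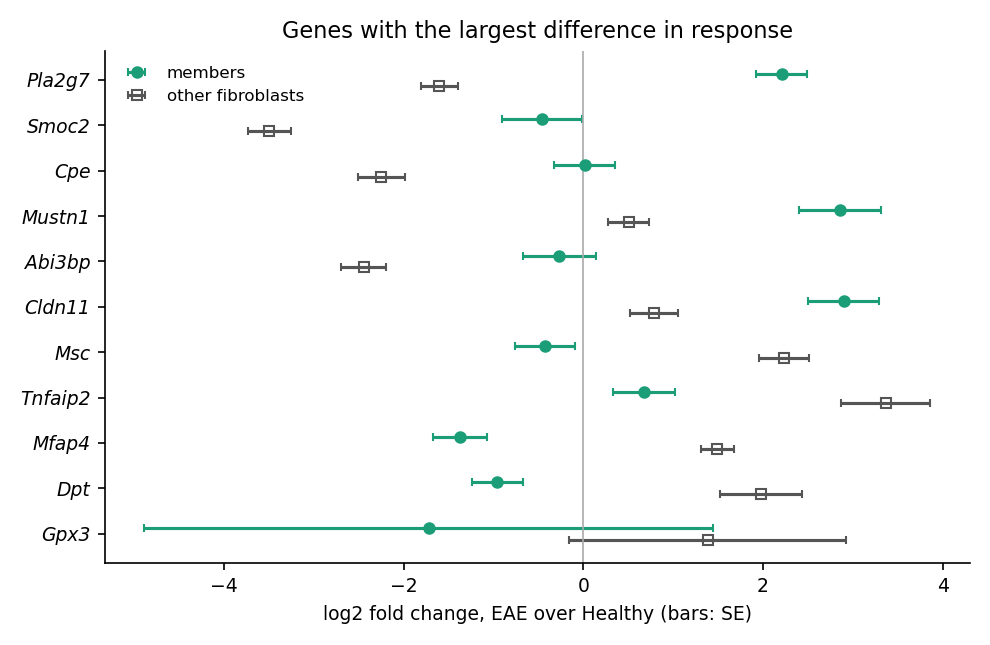
log2 fold change of EAE over Healthy (bars are SE) in members, filled circles, and in other fibroblasts, open squares, for the genes named for the largest differences, 6 higher and 5 lower. Pla2g7 rises by 2.21 in members and falls to -1.60 in other fibroblasts, and the wide bar of Gpx3 goes with its UMIs in Healthy 2.

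Within the members, clustering gave 6 sub-clusters that largely followed the libraries. Sub-cluster 0, led by Angptl1, Clec3b, Cpxm2, Fam180a and Fmod, held 248 members, of which 119, 52 and 63 were from Healthy 1, 2 and 3 and 10 and 4 from EAE 1 and EAE 2. Sub-cluster 4, led by Spp1, Il33, Snhg11, Edn3 and Sept4, held 37 members, 31 of them Healthy. Sub-cluster 1, led by Ptgds, Fn1, Sct, Igfbp3 and Serpind1, held 197 members, 169 from EAE 1. Sub-cluster 3 held 89 members, 79 from EAE 1, and was led by the acute phase genes Saa3, Lcn2 and Saa1 with Timp1 and Prg4. Saa3 stood at 4402 there and at 276 in the other members. Sub-cluster 2 held 98 members, 91 from EAE 2, and was led by Vps8, Nfkb1 and Neat1. Sub-clusters that are nearly all of 1 library cannot be told apart from that library. Sub-cluster 5, with 24 members from all 5 libraries, was led by Ccl11, Cst6, Inmt, Hpca and Lsamp, and its Clec3b level was 162, the lowest of the 6.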

How the data were processed

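UMI counts per gene and cell barcode were deposited by the authors for 5 libraries, 3 Healthy and 2 EAE, as whole numbers with no normalization. The tools were Cell Ranger 2.1.1 and Seurat 3 on build mm10, per the submitters' processing notes. All tables hold the same 27998 genes. How cells were called, and with which annotation release, is not given in the sources used here. Members and gene lists were chosen with earlier results of these data known. Counts were summed over members per library and entered the quasi-likelihood test of edgeR 4.0.16 (robust, TMM factors of 0.975 to 1.03, its filter on low counts, terms for batch and state) in R 4.3.3, with Benjamini-Hochberg adjustment at 0.05. Standard errors are |log2 fold change| divided by the root of the F statistic. The difference in response is the interaction of class and state, with library as a block. The 12 genes of the rule entered the fits and are given with no test. Printed CPM are without TMM. Members held 235158, 197580 and 398555 UMIs by Healthy library, and 1304502 and 701027 by EAE library, so low genes are least precise in Healthy 2.

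Genes named are, among those past the threshold whose mean CPM reached 50, the 12 that rose most and the 12 that fell most with no overlap between states (rises also at 20% or more of the level in the highest other marker class, which left out 1 of 104), up to 2 per list and direction, the 6 largest differences in response each way, and the 20 leading genes of members by their lowest ratio over libraries, with a pseudocount of 5 CPM. Genes named from the lists beyond 2 per direction, Bst2, C4b, Fos, Junb, Lum, Prelp, Spp1, Cyp26b1, Mgp, Saa3, Ptgds and Slc7a11 among them where the rule did not take them, were chosen after their values were seen. Some genes that the rule took are not reported here. Barcodes were clustered with scanpy 1.11.5 and leidenalg 0.10.2 at resolution 1 (2000 variable genes, 30 components, 15 neighbours), and members at resolution 0.5. Scripts were tested on simulated data. The alternatives were DESeq2 1.42.0, other scalings, filters, rules and batches, and leaving out each library.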

Additional observations from a re-analysis of the deposited data

Results flagged for a closer look

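The response to EAE differed between members and other fibroblasts, by edgeR's test of the difference itself, in the 11 genes named for it here. Differences on the log2 scale (members minus other fibroblasts) were 3.82 for Pla2g7, 3.00 for Smoc2, 2.23 for Cpe, 2.22 for Mustn1, 2.13 for Abi3bp and 2.09 for Cldn11. They were -3.48 for Gpx3, -2.94 for Dpt, -2.84 for Mfap4, -2.72 for Tnfaip2 and -2.62 for Msc. Dpt and Mfap4 were also leading genes by their Healthy ratio, so their smaller gap in EAE is no result in itself. Against the barcodes chosen by Itih5, Hsd11b1, Edn3 and Gpr182, the difference was 0.47 for Mustn1 (adjusted p = 0.833), 1.97 for Cldn11 (0.261) and -1.32 for Msc (0.0601), and the other 8 genes passed. Without Healthy 2 the difference was -1.83 for Gpx3 (adjusted p = 0.397), and without Healthy 3 that of Tnfaip2 was -1.60 (0.0953), so each of these calls needs 1 library. With copied barcodes left in, Gpx3, Dpt and Tnfaip2 no longer passed.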

How the results depend on the processing

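Of the members' response, 175 genes higher and 181 lower, DESeq2 gave 71 and 92, no batch term 109 and 99, the first batch alone 100 and 116, 65 members from each library 84 and 95, the stricter rule 74 and 68, and no filter on low counts 322 higher. After seeing the data, 2 alternatives were added: the rule applied after thinning to 1000 UMIs gave 36 and 29, and members with both Clec3b and Fmod gave 24 and 13, in libraries with at least 10 such members and with fewer genes tested. Leaving out 1 library at a time gave 52 to 333 higher and 47 to 325 lower. For the difference in response, 169 higher and 267 lower, DESeq2 gave 62 and 96, barcodes as deposited 102 and 94, the barcodes chosen by Itih5, Hsd11b1, Edn3 and Gpr182 as comparison 56 and 108, and leaving out 1 library gave 104 to 165 and 128 to 240. The cause of these shifts was not tested. The share of members differed by -7.40 points, and leaving out 1 library gave -9.91 to -4.88 points. All 12 largest rises and 12 largest falls kept their direction under every alternative that gave a value, but not all passed: 7 of 12 falls did not after thinning, nor 6 of 11 in members with Clec3b and Fmod, and with no batch term Ly6a had an adjusted p of 0.407. Apod reversed, at 0.33 (adjusted p = 0.618), when the rule was applied after thinning. The second batch has 1 library a state and gives values with no test. No paired analysis was possible because one EAE label carries no number (EAE 1 is a name given here in accession order), so Healthy and EAE share a single labelled replicate number. Member totals of 197580 to 1304502 UMIs limit what can be seen in genes under about 50 CPM.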
